A study of Mus musculus with 58 samples.

Results

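Messenger RNA of 10 Polycomb genes was compared between single long-term haematopoietic stem cells and single common myeloid progenitors of mouse bone marrow. The genes, chosen by name, were Ezh1, Ezh2, Eed, Suz12, Jarid2, Bmi1, Rnf2, Ring1, Cbx7 and Asxl1, and all 10 were among the 23152 gene symbols of the deposited table. All cells came from wild type C57BL/6 mice, and the labels name no treatment. The 34 cells of the stem cell gate (LT-HSC) lacked lineage markers, Flt3 and CD34 and carried Kit and Sca-1, and the 24 cells of the progenitor gate (CMP) carried Kit and CD34 and lacked lineage markers, Sca-1 and CD16/32. No label gives an animal, an age or a sex, and the labels also list passages, a term of cell culture. Each gate was therefore 1 sample. No test was made, no difference below has a replicate check, and every interval is a 95% interval for counting error only.

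Polycomb proteins keep genes silent through chromatin. Polycomb repressive complex 2 (PRC2) methylates a lysine of histone H3 through Ezh1 or Ezh2, its alternative catalytic subunits, which need Eed and Suz12, and Jarid2 is an accessory subunit that helps to bring the complex to its targets. Polycomb repressive complex 1 (PRC1) attaches ubiquitin to a histone through Ring1 or Rnf2, paired with a Pcgf protein such as Bmi1, and in its canonical form binds the PRC2 mark through a Cbx protein such as Cbx7. Asxl1 is a partner of the deubiquitinase Bap1, which removes the PRC1 mark. In mouse marrow, Bmi1, Cbx7 and Ezh1 are known for roles in stem cell maintenance, and Ezh2 is known in many tissues as the enzyme of dividing cells.

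An LT-HSC held 45022 to 860553 counts and a CMP 88329 to 706184, with 9931131 counts in the LT-HSC pool and 7062737 in the CMP pool. The gates bore their own markers: the 8 LT-HSC markers summed to a median of 7.62 per 10000 counts in LT-HSC against 0.70 in CMP, and the 7 markers of granulocyte and monocyte precursors to 3.96 and 49.6. Of 5 markers of T or NK cells, 1 had a count in LT-HSC and 2 in CMP, and Cd3e, Cd3d and Cd3g, which encode parts of the T cell receptor complex, were at 0 in both. They summed to 0 to 16.9 per 10000 counts in LT-HSC (median 0.0692) and 0.0172 to 12.05 per 10000 counts in CMP (median 3.33). Of 5 markers of B cells, 1 had a count in LT-HSC and 2 in CMP, and Ms4a1 and Pax5 were at 0 in both. They summed to 0 to 5.003 per 10000 counts in LT-HSC (median 0) and 0 to 2.53 per 10000 counts in CMP (median 0.0962). The part of these markers in the results was not tested. Xist, the RNA made from an inactive X chromosome, had no count in any LT-HSC or in CMP 1 and 2 and a count in the other 22 CMP. Gate and Xist therefore cannot be told apart in a comparison that uses those 22 cells.

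The start regions of Ezh1 and Ezh2, the pair compared, are shown with those of Suz12, the member with an E2F match, and Cbx7, the member higher in LT-HSC. Each line holds the 250 bases before the gene's RefSeq start, 5′ to 3′ on the gene's strand, in build GRCm38.p6: Ezh1 chr11:101226464-101226713 and Ezh2 chr6:47595031-47595280 on the minus strand, Suz12 chr11:79992856-79993105 on the plus strand and Cbx7 chr15:79932647-79932896 on the minus strand. The windows of Ezh2 and Cbx7 lie inside the gene bounds given below, which come from another annotation (GENCODE) whose starts differ from these. Those bounds are 47530139 to 47595341 for Ezh2 and 79915807 to 79971119 for Cbx7. Capitals mark matches on either strand to the E2F letters TTTCCCGC, TTTCGCGC, TTTGCCGC or TTTGGCGC, or to CCAAT, the motif of the factor NF-Y.
Ezh1: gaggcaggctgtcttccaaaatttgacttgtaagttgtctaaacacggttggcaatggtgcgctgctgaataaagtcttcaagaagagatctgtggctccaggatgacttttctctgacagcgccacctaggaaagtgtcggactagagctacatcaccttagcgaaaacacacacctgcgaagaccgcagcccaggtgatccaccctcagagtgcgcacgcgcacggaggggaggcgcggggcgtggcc
Ezh2: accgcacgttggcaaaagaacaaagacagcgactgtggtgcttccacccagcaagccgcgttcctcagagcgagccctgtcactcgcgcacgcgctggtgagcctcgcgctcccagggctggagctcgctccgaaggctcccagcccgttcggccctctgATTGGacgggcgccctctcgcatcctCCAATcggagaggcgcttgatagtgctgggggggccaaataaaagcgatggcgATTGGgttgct
Suz12: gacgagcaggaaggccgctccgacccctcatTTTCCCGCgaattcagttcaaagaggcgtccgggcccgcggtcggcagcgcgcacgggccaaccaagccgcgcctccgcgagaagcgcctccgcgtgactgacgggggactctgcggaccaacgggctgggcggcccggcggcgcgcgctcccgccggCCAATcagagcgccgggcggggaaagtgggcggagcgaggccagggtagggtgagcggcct
Cbx7: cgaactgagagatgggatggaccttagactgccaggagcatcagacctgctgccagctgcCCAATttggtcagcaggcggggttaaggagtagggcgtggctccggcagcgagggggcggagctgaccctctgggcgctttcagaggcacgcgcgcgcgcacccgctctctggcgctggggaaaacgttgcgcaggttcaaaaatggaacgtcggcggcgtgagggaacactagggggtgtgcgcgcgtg
Ezh2 held 3 CCAAT matches, starting 90, 64 and 11 bases before its start, Suz12 held 1 CCAAT and 1 E2F match, Cbx7 held 1 CCAAT match, and Ezh1 held neither motif. Of the members not shown, Jarid2 held 1 CCAAT match, and Eed, Bmi1, Rnf2, Ring1 and Asxl1 held neither motif. Of all 32851 such windows, 33.8% held CCAAT and 1.86% an E2F match, and the E2F match of Suz12 did not overlap its CCAAT match. A match describes letters only, and its absence says nothing of the factor.

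Of the 10 genes, Ezh2, Eed, Suz12, Bmi1, Rnf2 and Asxl1 were lower in the LT-HSC pool than in the CMP pool whichever cell was left out, and Cbx7 was higher. The direction of Ezh1, Jarid2 and Ring1 turned when a single cell was left out, and the difference in Rnf2 lay mostly in 1 cell. All 10 had at least 20 counts over both pools. Towards CMP 5 members (Ezh2, Eed, Bmi1, Rnf2 and Asxl1) were 2-fold or more apart, as were 28.1% of the 10937 genes with that many counts. Towards LT-HSC 1 member (Cbx7) passed 2-fold, as did 22.7% of those genes. The log2 ratio (LT-HSC over CMP) had a median of −0.99 over the members and −0.13 over all those genes. The 10 members summed to 242 CPM (counts per 1000000) in LT-HSC (interval 232 to 251) against 467 in CMP (interval 451 to 483). That difference was uneven: Ezh2 alone had 50.2 against 174 CPM, and the 5 PRC2 members summed to 157 against 352. The 4 PRC1 members (Bmi1, Rnf2, Ring1 and Cbx7) summed to 71.5 against 80.3. In pooled counts, fewer cells with a transcript and fewer transcripts per cell cannot be told apart, so values per cell are given beside each pool.

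Counts of the members were spread unevenly over cells. The median LT-HSC held at least 10 counts of 1 member (range 0 to 4) and the median CMP of 2 members (range 1 to 7), and 10 LT-HSC but no CMP had 10 counts of none. Of the 120 values above 0 in LT-HSC, 67 were of 1 to 3 counts, and of the 190 in CMP, 84 were. For that reason, where cells with any count of a member are given, cells with at least 10 are given too, except after thinning. The levels per cell overlapped between the gates for every member.

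**Figure D1:**
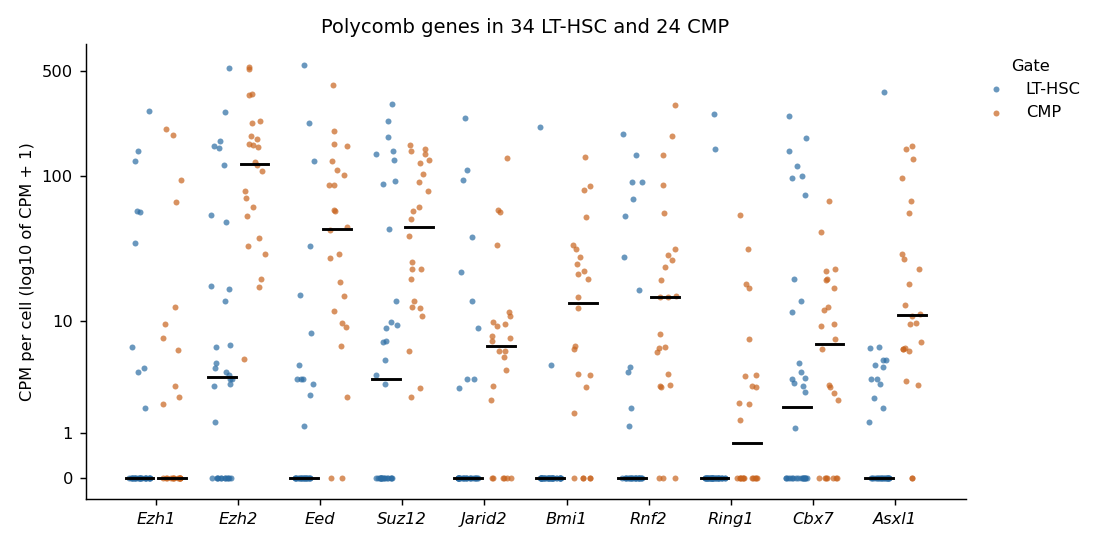
Level of each member in each cell, in CPM on a log10 axis after adding 1, for 34 LT-HSC and 24 CMP; each point is a cell and each black bar a gate's median. The median of Ezh2 is 121 CPM in CMP against 3.72 in LT-HSC, and the points of the gates overlap for all 10 genes.

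Between the enzyme genes, Ezh2 was far lower in LT-HSC than in CMP and the direction of Ezh1 was not settled, and Ezh1 took a larger share of the pair in the LT-HSC pool. Ezh2 (chromosome 6, 47530139 to 47595341, minus strand, build mm10 as for all genes here) had a pooled level of 50.2 CPM in LT-HSC (interval 45.9 to 54.9) against 174 in CMP (interval 164 to 184). Single LT-HSC had 0 to 523 CPM, with a median of 3.72, and single CMP had 5.16 to 529, with a median of 121. All 24 CMP held an Ezh2 count and 20 held at least 10, whereas 22 of 34 LT-HSC held a count and 8 held at least 10. The log2 ratio of −1.79 (interval −1.94 to −1.64) made Ezh2 3.45-fold higher in CMP, and it lay between −2.10 and −1.58 whichever cell was left out. With every cell thinned to 97978 counts, 14 of 30 LT-HSC and 21 of 22 CMP kept an Ezh2 count.

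Ezh1 (chromosome 11, 101191115 to 101226463, minus strand) had no count in most cells of both gates. Its pooled level was 21.7 CPM in LT-HSC (interval 18.9 to 24.9) against 29.2 in CMP (interval 25.3 to 33.4). Single LT-HSC had 0 to 271 CPM and single CMP 0 to 205, with a median of 0 in each gate. A few cells set these levels: 5 LT-HSC and 4 CMP had at least 10 Ezh1 counts. The log2 ratio was −0.42 (interval −0.71 to −0.14), but it gave no firm direction, because without CMP 4, which held 87 of the 206 CMP counts, it turned to 0.27. Without LT-HSC 4, which held 76 of the 216 LT-HSC counts, it was −1.01.

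Ezh1 made up 30.2% of the pair's 715 counts in LT-HSC (Clopper-Pearson interval 26.9 to 33.7) against 14.4% of 1432 counts in CMP (interval 12.6 to 16.3). The transcripts may be captured unequally, so the share is read between gates and not as the ratio of the enzymes. For every 100 Ezh2 counts there were 43.3 Ezh1 counts in LT-HSC and 16.8 in CMP. The share in LT-HSC stayed above that in CMP whichever single cell was left out, with a lowest value of 22.1% in LT-HSC, without LT-HSC 4, and a highest of 17.1% in CMP, without CMP 19. In CMP, it was 9.37% without CMP 4. In CMP 1 and 2, the CMP without Xist, it was 20.3% (interval 16.01 to 25.2), but 3.50% in CMP 1 and 94.8% in CMP 2, which held 55 of their 64 Ezh1 counts.

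Within single cells the share was mostly near an end of its range. Of 12 LT-HSC with at least 10 counts of the pair, 6 had under 10% Ezh1, 3 had over 90% and 3 lay between, with a median of 23.1% (range 0 to 94.1%). Of 21 such CMP, 17 had under 10%, 1 had over 90% and 3 lay between, with a median of 0.602% (range 0 to 94.8%). Over 90% were LT-HSC 4, 12 and 22 and CMP 2. At least 10 counts of both genes were found in LT-HSC 16 and 18 and in CMP 4, 17 and 21. Over all 58 cells the rank correlation (Spearman's rho) of Ezh1 and Ezh2 was 0.23, a weak value in sparse counts that share each cell's total.

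**Figure D2:**
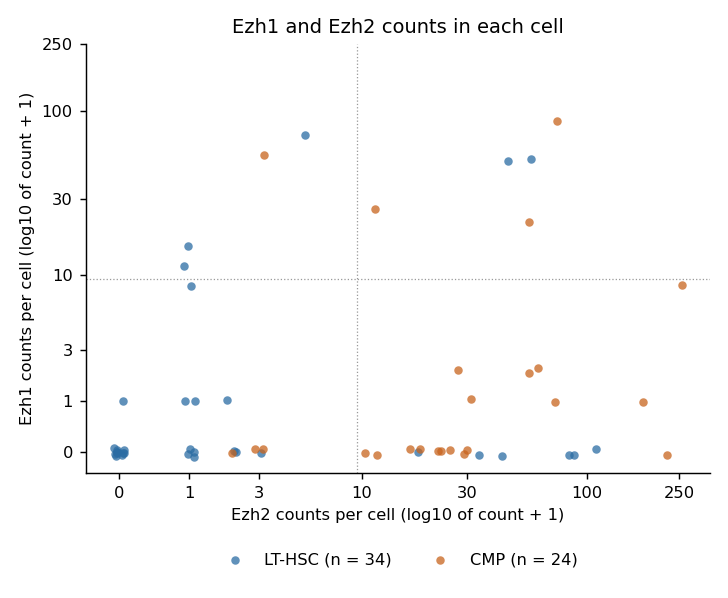
Ezh2 counts (horizontal) and Ezh1 counts (vertical) in each of 34 LT-HSC and 24 CMP, on log10 axes after adding 1 with a small random shift; dotted lines mark 10 counts. Most CMP lie at the lower right, with Ezh2 and little Ezh1, and 2 LT-HSC and 3 CMP have at least 10 counts of both.

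The PRC2 subunit genes Eed and Suz12, needed by either enzyme, were lower in the LT-HSC pool. Eed (chromosome 7, 89954654 to 89980983, minus strand) had 30.7 CPM in LT-HSC against 62.9 in CMP. The cells of the LT-HSC gate ranged over 0 to 552 CPM, with a median of 0, and single CMP 0 to 408, with a median of 44.3. The log2 ratio was −1.03 (interval −1.25 to −0.82), at the edge of 2-fold, and leaving out any of 21 cells brought it under, to −0.91 at most, without CMP 22. LT-HSC 26 held 127 of its 305 counts in that gate, and leaving this cell out gave −1.77.

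Suz12 (chromosome 11, 79993106 to 80034123, plus strand) had 36.15 CPM in LT-HSC against 69.7 in CMP. Single LT-HSC had 0 to 301 CPM, with a median of 3.55, and single CMP 2.48 to 160.3, with a median of 45.1. Every CMP thus held a Suz12 count, as did 18 of 34 LT-HSC, and 11 CMP and 8 LT-HSC held at least 10. Its log2 ratio was −0.95 (interval −1.15 to −0.75), and leaving out any of 11 cells put it over 2-fold, to −1.24 without LT-HSC 30. All 3 of Ezh2, Eed and Suz12 together reached 10 counts in the same cell in 6 of 24 CMP and 1 of 34 LT-HSC.

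Jarid2 (chromosome 13, 44729474 to 44921643, plus strand) was level between the pools, with 17.9 CPM in LT-HSC against 16.6 in CMP. Over cells, it had 0 to 244 CPM in LT-HSC against 0 to 132 in CMP, with medians of 0 and 6.55. Its log2 ratio was 0.11 (interval −0.23 to 0.46). It turned to −0.68 without LT-HSC 10, −0.37 without LT-HSC 21, −0.03 without LT-HSC 13 and −0.01 without CMP 2, and was 0.89 without CMP 20, so these counts gave no direction.

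Among the PRC1 members, Bmi1 and Cbx7 lay at opposite ends. Bmi1 (chromosome 2, 18677018 to 18686629, plus strand) was nearly absent from LT-HSC, at 2.52 CPM (interval 1.63 to 3.72) against 25.3 in CMP (interval 21.8 to 29.3). Of its 25 LT-HSC counts, 24 were in LT-HSC 2, at 214 CPM, and 1 was in LT-HSC 13. In CMP, 19 of 24 cells held a count and 8 held at least 10, with a median of 13.6 CPM and a highest value of 135. The log2 ratio was −3.31 (interval −4.00 to −2.72), and without LT-HSC 2 it was −7.38. It was −1.79 after thinning, −1.93 from the mean of each cell's CPM and −1.77 for LT-HSC 1 to 16 against CMP, so its size was not settled. After thinning, 1 of 30 LT-HSC and 13 of 22 CMP kept a Bmi1 count. LT-HSC 17 to 34 had none in 6520982 counts, where 3 counts would give 0.46 CPM.

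Cbx7 (chromosome 15, 79915807 to 79971119, minus strand) was 4.25-fold higher in the LT-HSC pool, at 41.8 CPM (interval 37.9 to 46.0) against 9.77 in CMP (interval 7.601 to 12.4). Single LT-HSC had 0 to 253 CPM, with a median of 1.95, and single CMP 0 to 67.5, with a median of 6.81. The median cell was thus higher in CMP, and the pooled difference lay in a few LT-HSC with many counts: 18 of 34 LT-HSC and 17 of 24 CMP held a count, but 7 LT-HSC and 2 CMP held at least 10. In log2 terms the ratio was 2.09 (interval 1.73 to 2.49). LT-HSC 34 held 184 of its 415 counts in that gate, and leaving this cell out gave 1.35. CMP 1 and 2 held no Cbx7 count, where 3 counts would give 2.33 CPM.

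The annotated 3′ end of Cbx7 overlaps that of Apobec3, an antiviral deaminase gene on the other strand, over 100 bases, and whether strand was used in counting is not given in the sources used here. Apobec3 had 186 CPM in LT-HSC against 144 in CMP. LT-HSC 34, with the most Cbx7, held 3 Apobec3 counts, and LT-HSC 17, with the most Apobec3 of its gate at 364 counts, held 2 of Cbx7. Among CMP, CMP 22, with the most Cbx7 at 18 counts, held 34 of Apobec3. CMP 2, with the most Apobec3 at 204, held 0 of Cbx7. The part of the overlap in the Cbx7 counts was not tested.

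The catalytic genes of PRC1 gave less. Rnf2 (chromosome 1, 151458004 to 151500955, minus strand) had 17.5 CPM in LT-HSC against 37.0 in CMP. The cells of the LT-HSC gate ranged over 0 to 192 CPM, with a median of 0, and single CMP 0 to 299.6, with a median of 14.9. CMP 19 held 129 of the 261 CMP counts, and without it the log2 ratio of −1.08 (interval −1.36 to −0.79) was −0.19, so the pooled difference rested on 1 cell. It was also under 2-fold without LT-HSC 17, 18 or 33 or CMP 15, between −0.97 and −0.89. Its 3′ end overlaps that of Trmt1l, a gene on the other strand, over 158 bases, and CMP 19 held 5 Trmt1l counts. Trmt1l had 13.7 CPM in LT-HSC against 31.3 in CMP, a log2 ratio of −1.19. CMP 1, with the most Trmt1l of its gate at 62 counts, held 19 of Rnf2, and LT-HSC 32, with the most at 47, held 0. The part of the overlap in the Rnf2 counts was not tested.

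Ring1 (chromosome 17, 34020792 to 34024680, minus strand) was found in 2 LT-HSC with 96 counts, 79 of them in LT-HSC 27 and 17 in LT-HSC 2, and in 12 CMP with 58 counts. Of those CMP, 3 held at least 10 Ring1 counts. Over cells, Ring1 had 0 to 260.1 CPM in LT-HSC against 0 to 54.6 in CMP. Its pooled levels were 9.67 and 8.21 CPM. Its log2 ratio of 0.23 (interval −0.25 to 0.73) turned to −2.19 without LT-HSC 27 and −0.03 without LT-HSC 2, and was 0.83 without CMP 20.

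Asxl1 (chromosome 2, 153345829 to 153404007, plus strand) was lower in LT-HSC, at 13.3 CPM (interval 11.1 to 15.8) against 34.7 in CMP (interval 30.5 to 39.3). LT-HSC 30 held 118 of its 132 counts in that gate, at 364 CPM, and the other 12 LT-HSC with a count held 1 or 2 each. In CMP, 22 of 24 cells held a count, 7 of them at least 10 and 12 of them 1 to 3. The CMP median was 11.1 CPM and the highest value 159. The pooled levels gave a log2 ratio of −1.38 (interval −1.70 to −1.07), and without LT-HSC 30 it was −4.53. The first exon of Asxl1 overlaps 2500004C02Rik, a gene on the other strand, over 245 bases, and LT-HSC 30 held 12 counts of the latter. The part of that overlap in the Asxl1 counts was not tested.

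**Figure D3:**
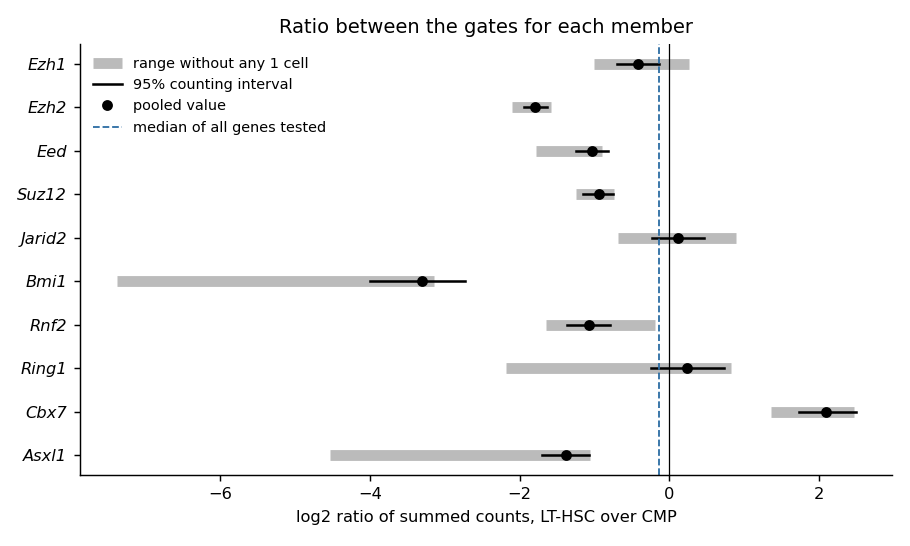
Log2 ratio of summed counts, LT-HSC over CMP, for each member (points), with the 95% counting interval (thin lines) and the range when any 1 cell is left out (grey bars); the dashed line is the median of all genes with at least 20 counts, −0.13. For Bmi1, Asxl1, Ring1 and Rnf2 the grey bars reach well past the counting intervals, and those of Ezh1, Jarid2 and Ring1 cross 0.

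Other members were set among their paralogs in the same way, since these proteins take the same place in a complex. The Cbx paralogs are given by their levels only. Cbx2, at 3.73 against 8.92 CPM, and Cbx6, at 3.12 against 12.7, were higher in CMP, unlike Cbx7, and the log2 ratio of Cbx6 went from −2.01 to −1.31 without CMP 17 and to −2.91 without LT-HSC 12. Without LT-HSC 22, which held 97.3% of the LT-HSC counts of Cbx2, its log2 ratio went from −1.25 to −5.85. Cbx8 had a log2 ratio of 0.61, with −0.07 without LT-HSC 24 and 1.32 without CMP 4.

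Bmi1 made up 3.10% of the 807 counts of the 6 Pcgf genes in LT-HSC (interval 2.01 to 4.54) against 22.6% of 791 in CMP (interval 19.8 to 25.7), and leaving out LT-HSC 2 gave 0.13% for LT-HSC. In LT-HSC 1 to 16, which include LT-HSC 2, the share was 17.1% (interval 11.4 to 24.2), and over all LT-HSC it was 8.73% as a mean over cells and 6.99% after thinning. Pcgf5 held most LT-HSC counts of this family, at 63.9 CPM against 29.5 in CMP, and its log2 ratio of 1.12 was 0.46 without LT-HSC 26. Pcgf3 had 1 count in LT-HSC and 214 in CMP, a log2 ratio of −7.65 (interval −13.54 to −5.74), and −6.79 without CMP 18. The log2 ratio of Pcgf1 turned from −1.21 to 0.86 without CMP 2, and that of Pcgf6 from 0.14 to −1.12 without LT-HSC 16.

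Ring1 made up 35.6% of the counts of Ring1 and Rnf2 in LT-HSC against 18.2% in CMP. Leaving out LT-HSC 27 gave 8.90% for LT-HSC, and leaving out CMP 19 gave 30.5% for CMP. Asxl1 made up 46.2% of the counts of Asxl1 and Asxl2 in LT-HSC against 59.8% in CMP, and leaving out LT-HSC 30 gave 8.33% for LT-HSC. When single cells were left out, the order between the gates turned for the Ring1 share and held for those of Ezh1, Bmi1 and Asxl1. In LT-HSC 17 to 34 alone, however, the Asxl1 share was 61.7%.

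**Figure D4:**
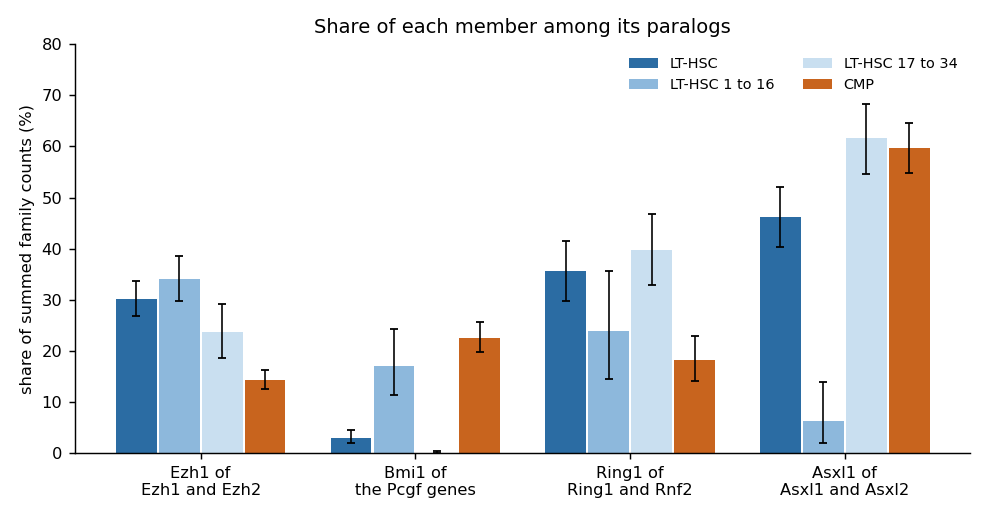
Share of each member in the summed counts of its paralogs, in percent, in all LT-HSC, LT-HSC 1 to 16, LT-HSC 17 to 34 and all CMP; error bars are 95% Clopper-Pearson intervals for counting error. The share of Ezh1 is higher in every LT-HSC bar than in CMP, although without LT-HSC 18 that of LT-HSC 17 to 34 would be 7.69%, and for Asxl1 the bar of LT-HSC 1 to 16 stands at 6.25% and that of LT-HSC 17 to 34 at 61.7%.

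Of 24 further PRC1 genes, 12 passed 2-fold towards CMP, beside 28.1% of all genes, and 5 towards LT-HSC, beside 22.7%. Their median log2 ratio was −0.97, beside −0.13 for all genes, and in 12 of the 24 a single cell held over 50% of a pool's counts. Usp7, a deubiquitinase that associates with PRC1, had 7.55 CPM in LT-HSC against 108 in CMP, and 14 LT-HSC and all 24 CMP held a count. At least 10 Usp7 counts were held by 2 LT-HSC and 11 CMP. L3mbtl2, a subunit of a noncanonical PRC1, had 2.72 against 19.7 CPM, with a log2 ratio of −2.83, and −4.05 without LT-HSC 1. Scmh1, a homologue of the fly gene Sex comb on midleg, had 0.70 against 13.45 CPM. Scml2, another such homologue, was the reverse, with a log2 ratio of 3.80, and 2.80 without LT-HSC 12. Auts2 had 2 counts in LT-HSC and 31 in CMP, all 31 in CMP 16, and its log2 ratio of −4.15 turned to 1.81 without that cell. Pcgf2 had no LT-HSC count and 20 in CMP, a level 9.37-fold that of a floor of 3 counts over the LT-HSC pool. The counting interval of its log2 ratio ended at −2.80, a smaller fold, so the 9.37-fold is no lower bound. CMP 6 held 10 of the 20, and leaving it out made the CMP level 4.78-fold that of the floor.

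Of the further PRC2 genes, 5 had enough counts. Mtf2, which brings PRC2 to CpG islands, was at least 2-fold higher in CMP, at 89.5 CPM in LT-HSC against 183, a log2 ratio of −1.03, and −0.90 without CMP 1. The other 4 lay within 2-fold, and the median of the 5 was −0.60. Among them, the log2 ratio was −0.60 for Rbbp4 and −0.11 for Rbbp7, histone-binding genes that serve several complexes. Of 9 genes around the Bap1 deubiquitinase, 3 passed 2-fold towards CMP, near the 28.1% of all genes, and none towards LT-HSC, beside 22.7%. Their median was −0.59. Bap1 itself had 14.3 against 35.3 CPM, a log2 ratio of −1.30, with −0.98 without CMP 1 and −2.58 without LT-HSC 9. Foxk2, a transcription factor that binds Bap1, had 2.11 against 28.9 CPM, a log2 ratio of −3.74, and −4.40 without LT-HSC 2. Hcfc1, a cofactor gene on the X chromosome, had 13.4 against 75.5 CPM, and its log2 ratio went from −2.49 to −4.09 without LT-HSC 30. Asxl2, the paralog of Asxl1, had a log2 ratio of −0.59, with −0.05 without CMP 4 and −1.24 without LT-HSC 23.

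Trithorax proteins and demethylases are known to act against Polycomb. Of 11 Trithorax genes, which encode subunits of activating histone methyltransferases, 4 passed 2-fold towards CMP and 2 towards LT-HSC, near the 28.1% and 22.7% of all genes, and their median was −0.61. Setd1a, a catalytic subunit, had 2.22 CPM in LT-HSC against 24.5 in CMP, a log2 ratio of −3.44, and −4.40 without LT-HSC 19. For Kmt2c, another, that ratio was −1.89, and −4.81 without LT-HSC 22. It was −1.78 for Setd1b, and −3.58 without LT-HSC 32. For Ash2l it was −1.09, with −0.66 without CMP 1 and −1.82 without LT-HSC 17. Rbbp5, a core subunit, was instead the higher in the LT-HSC pool, at 29.4 against 8.35 CPM, as was Men1, with a log2 ratio of 1.07, and 0.57 without LT-HSC 34. Of the demethylases of the PRC2 mark, Kdm6b had 37.7 CPM in LT-HSC against 22.8 in CMP, a log2 ratio of 0.72, and 1.30 without CMP 23. Kdm6a, on the X chromosome, had 5.84 against 20.1 CPM. Without LT-HSC 17, which held 94.8% of its LT-HSC counts, the log2 ratio of Kdm6a went from −1.78 to −5.73, and without CMP 4 it was −1.10.

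Transcripts of 12 genes known to be silenced by Polycomb were at or near 0 in both gates. None of the 12 reached 20 counts over both pools, which 10937 of all 23152 genes did. The cause of their low counts was not tested. Cdkn2a, the cell cycle inhibitor locus that Bmi1 is known to repress, had no count in either pool, and nor did Pax5, Pax6, Gata4, Sox17, Foxa2, Olig2, Neurog2, Hoxd13 and Hoxa13. Cdkn2b and Ebf1 had 2 CMP counts each. At a floor of 3 counts, a count of 0 allows 0.30 CPM in LT-HSC and 0.42 in CMP.

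Ezh2 was set beside the summed level of 45 cycling genes (20 of S phase and 25 of G2 and M phase), which also differed between the gates. These made up 9.08 of 10000 counts at the median over LT-HSC, whose cells spanned 2.54 to 92.6, and 51.8 over CMP, whose cells spanned 21.9 to 102. Of the 20 S phase genes, 5 passed 2-fold towards CMP, near the 28.1% of all genes, and of the 25 G2 and M genes 16 did, more than that share. Their part in the difference in Ezh2 was not tested. Within the 24 CMP, Pearson's r of Ezh2 with the cycling level, on log2 values, was 0.57 and rho 0.56, and 0.42 and 0.45 without CMP 2 and 3. Within the 22 CMP with Xist these were 0.46 and 0.49, and 0.29 and 0.35 without CMP 3 and 21. Within the 34 LT-HSC r was 0.11 and rho 0.22, and −0.04 and 0.14 without LT-HSC 17 and 33. For Ezh1, r and rho were 0.14 and 0.19 in CMP, and 0.42 and 0.33 without CMP 2 and 3. In LT-HSC they were −0.06 and −0.08 for Ezh1. Both measures share each cell's total count, whose rho with Ezh2 CPM was 0.16 among CMP and 0.38 among LT-HSC.

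LT-HSC 1 to 16 and 17 to 34 differ in many genes, a division by cell number that was chosen after their values had been seen and is given by no label. Ezh2 was higher in the pooled counts of the first block, at 86.8 CPM (interval 77.2 to 97.3), than of the second, at 31.1 (interval 26.995 to 35.7). LT-HSC 7 and 10 held 106 and 86 of the first block's 296 counts. Leaving out LT-HSC 7 moved that block's log2 ratio to CMP from −0.998 to −1.55, and leaving out LT-HSC 17 moved the second's from −2.48 to −3.10. The median cycling level was 6.98 of 10000 counts in the first block and 23.7 in the second. An Ezh2 count was found in 11 cells of each block. In each block 4 cells held at least 10 Ezh2 counts. In the first block these were LT-HSC 7, 10, 13 and 16, and r of Ezh2 with the cycling level was −0.14 (16 cells, rho 0), and 0.00 (rho 0.02) without LT-HSC 12 and 15. In the second they were LT-HSC 17, 18, 31 and 33, and r was 0.65 (18 cells, rho 0.73), and 0.57 without LT-HSC 17 and 23. LT-HSC 17, 18 and 33 held 729071, 860553 and 829389 counts in total and LT-HSC 31 held 117604, beside a median of 236774 over LT-HSC. The rho of total count with Ezh2 CPM was 0.57 in the first block and 0.43 in the second, and the part of depth was not tested. Ezh1 was also higher in the first block, at 44.9 CPM against 9.66, so that its log2 ratio to CMP was 0.62 for the first block and −1.59 for the second. The Ezh1 share was 34.1% in the first block and 23.7% in the second. LT-HSC 4 and 18 moved these values: leaving out LT-HSC 4 gave a log2 ratio of −0.24 and a share of 20.9% in the first block, and leaving out LT-HSC 18 gave −3.62 and 7.69% in the second, below the 14.4% of CMP.

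**Figure D5:**
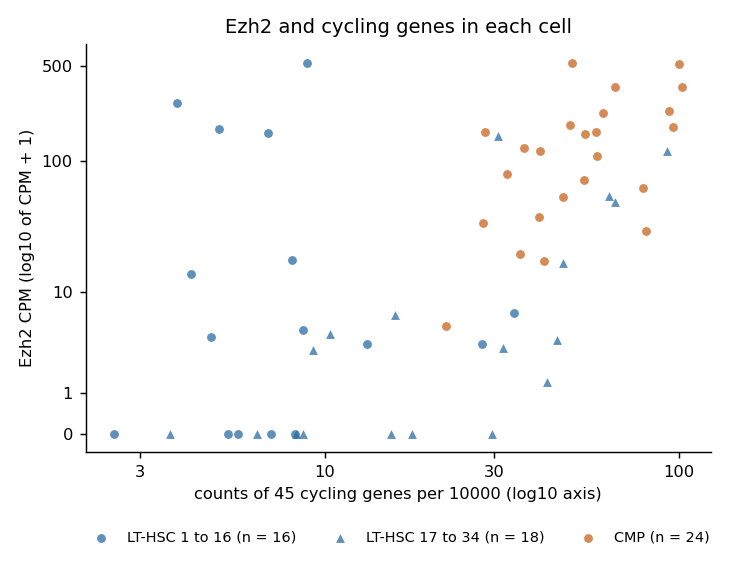
Summed counts of 45 cycling genes per 10000 counts (horizontal, log10 axis) and Ezh2 in CPM (vertical, log10 of CPM + 1) in each cell; blue circles are LT-HSC 1 to 16, blue triangles LT-HSC 17 to 34 and orange circles CMP. The 4 cells of LT-HSC 1 to 16 with at least 10 Ezh2 counts lie between 3.83 and 8.92 on the horizontal axis, and the 4 of LT-HSC 17 to 34 lie between 30.9 and 92.6.

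The genes whose levels ranked most like Ezh2 over the 58 cells, among 6752 with a count in at least 1 of 3 cells, were Tex2 (rho 0.68), Ptgr1 (0.68), Mmadhc (0.67), Nusap1 (0.67) and Nucks1 (0.66), and 274 genes reached 0.5. All 5 had lower values within each gate, 0.32 to 0.59 among LT-HSC and −0.16 to 0.34 among CMP. For Ezh1 only Cbx1, which encodes a heterochromatin protein and is no Polycomb gene despite its symbol, reached 0.5 (rho 0.54, with 0.59 in LT-HSC and 0.34 in CMP). The cells share 2 gates and unequal depths, and no p is given.

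Against CMP 1 and 2 alone, the CMP that lacked Xist as the LT-HSC did, the members' median log2 ratio was −0.31, while that of all genes with at least 20 counts was 0.91. Pooled, the log2 ratio of Ezh2 was −1.96, with Suz12 at −1.60, Bmi1 at −2.70, Eed at −0.75 and Ezh1 at −1.20. Rnf2 and Asxl1 turned, to 0.21 and 0.15, and Jarid2 was at 2.07 and Ring1 at 0.12. Most of these values rested on 1 of the 2 cells. CMP 1 held 248 Ezh2 counts and CMP 2 held 3, and without CMP 1 the log2 ratio turned to 3.06 for Ezh2 and stood at −0.01 for Bmi1, −0.71 for Suz12, −0.95 for Eed, 4.35 for Rnf2, 1.63 for Asxl1 and −2.13 for Ezh1. Without CMP 2 it turned to 0.70 for Ezh1, −0.65 for Rnf2 and −0.52 for Asxl1, and was −2.81 for Ezh2. These values compare 34 cells with 2, on 1288026 CMP counts.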

How the data were processed

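Single cells were sorted by surface markers, reverse transcribed with oligo(dT) primers that carry a cell barcode and a molecular identifier, and sequenced at 3′ ends, per the labels' protocols. TopHat2 2.0.12, HTSeq, Seurat 2.0 and build mm10 are named, without roles, per the submitters' processing notes. The authors deposited whole-number counts per gene symbol and cell; whether these are molecules or reads is not given in the sources used here, and reads would make the counting intervals too narrow.

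All 58 columns were matched to cells by title, and no cell was removed. Counts were summed per gate and divided by the summed total (CPM), with exact Poisson intervals. Levels were not divided by transcript length, so levels of different genes are not ranked. Log2 ratios used 0.5 added to each summed count, with exact conditional binomial intervals; shares have Clopper-Pearson intervals. The ratio and its interval were tested on simulated pools of Poisson counts. Those pools lack the uneven spread over cells seen here, so that test cannot tell how the intervals behave on these counts. Where a pool had no count, a floor of 3 counts was used. Cells were thinned to 97978 counts, which left out 4 LT-HSC and 2 CMP. Correlations used log2 of CPM + 10. No doublet caller was run, since cells were placed singly.

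The members, the other gene lists and the alternatives were chosen with earlier results of these data known. From each list the genes at least 2-fold apart were named, at most 8 by size, with the members' paralogs; Rbbp4, Rbbp7, Kdm6b, Apobec3, Trmt1l and 2500004C02Rik were named after their values were seen. Some results on paralogs and markers are not reported here. Gene positions are from GENCODE M21 (mm10, 1-based), and start regions from RefSeq, matched by symbol for all 10 members. Python 3.11.15, numpy 2.4.6, pandas 2.3.3, scipy 1.17.1 and matplotlib 3.10.9 were used.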

Additional observations from a re-analysis of the deposited data

How the results depend on the processing

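The direction of Ezh2, Eed, Suz12, Bmi1 and Cbx7 held under all 9 alternatives run for each, but that of Ezh2 turned within 1 of them, below. Thinning every cell moved the log2 ratio of Ezh1 to −0.78 and its share in LT-HSC to 23.8%. The mean over cells put that share at 39.0%. Median-of-ratios scaling shifted all genes by 0.13 on the log2 scale and left 3 members 2-fold or more higher in CMP. With only the cells without Xist, the log2 ratio was −1.20 for Ezh1 and −1.96 for Ezh2. The Ezh1 share in CMP was then 20.3%. In that setting the members' median was −0.31, beside 0.91 for all genes with at least 20 counts. Rnf2 (0.21) and Asxl1 (0.15) reversed but stayed below that all-gene median, and 2 members passed 2-fold towards LT-HSC. The share of all genes past 2-fold is not given for either setting. With LT-HSC 1 to 16 only, the log2 ratio was 0.62 for Ezh1 and −0.998 for Ezh2 and the share 34.1%; with LT-HSC 17 to 34 only, these were −1.59, −2.48 and 23.7%. The cause of these changes was not tested. Leaving out single cells within these subsets, which was added after seeing the data, gave −0.24 to 0.77 for Ezh1, −1.55 to −0.88 for Ezh2 and 20.9% to 44.6% for the share in LT-HSC 1 to 16. In LT-HSC 17 to 34 it gave −3.62 to −1.39, −3.10 to −2.31 and 7.69% to 35.0%. With only CMP 2 as the cell without Xist, the log2 ratio was 3.06 for Ezh2, −2.13 for Ezh1, 4.35 for Rnf2 and 1.63 for Asxl1, and the share in CMP 94.8%; with only CMP 1 these were −2.81, 0.70, −0.65, −0.52 and 3.50%.

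Leaving out each cell in turn gave a log2 ratio of −1.01 to 0.27 for Ezh1 and −2.10 to −1.58 for Ezh2, with −1.65 for Rnf2 without LT-HSC 34 and −4.53 for Asxl1 without LT-HSC 30. The Ezh1 share ran from 22.1% to 35.5% in LT-HSC and from 9.37% to 17.1% in CMP. The members' median ran from −1.05 to −0.77, and 3 to 6 members passed 2-fold towards CMP (3 without LT-HSC 33 or CMP 15) and 1 towards LT-HSC. Of 120 further values of single members and paralog shares under the other alternatives, 72 stayed within their counting interval, 46 moved outside it and 2 reversed. Those 2 were Rnf2 and Asxl1 with only the cells without Xist. The 72 include LT-HSC shares under alternatives that left out CMP cells only, which could not move and say nothing of stability. Jarid2 kept its direction in 5 of 9 alternatives and Ring1 in 8 of 9. Both have counting intervals that span 0, and their turns are not among the 2. No paired analysis was possible because no result comes from a test and the cell numbers name cells only. Depth limits the low members most: at a floor of 3 counts, a pool without a count allows up to 0.30 CPM in LT-HSC and 0.42 in CMP.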
